A study of Homo sapiens with 8 samples.

Results

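The NF-κB pathway and its feedback genes were represented by 10 named genes of 18638 gene models counted in 2 human colorectal cancer cell lines. They were found by an exact match of gene symbol in the count table of each cell line, and all 10 were present in both. They comprised the transcription factor subunits NFKB1, NFKB2, RELA and RELB, the inhibitors and feedback regulators NFKBIA, TNFAIP3 and BIRC3, and the targets CXCL1, CXCL2 and ICAM1. The assay was factory-seq of nascent RNA, in which nuclei are treated with DNase I and then with caspases that release RNA held at sites of transcription. There were 4 groups of 2 libraries.

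DLD-1 is a line from a colorectal adenocarcinoma. All 4 DLD-1 libraries came from DLD-1-mAID-mClover-POLR2A(Tet-OsTIR1) cells, in which RPB1, the catalytic subunit of RNA polymerase II, carried a degron (mAID) and a fluorescent tag. A degron leads to destruction of its protein once auxin and the plant protein TIR1 are both present, and doxycycline served to induce TIR1. The DLD-1 controls were labelled untreated, and the auxin group received 500 µM auxin for 14 h after doxycycline for 24 h. HCT116 is a line from a colorectal carcinoma, and all 4 HCT116 libraries carried the degron on TOP2A (TOP2A-mAID). The second HCT116 group was also TOP2B-/-, a knockout of topoisomerase IIβ, and is called TOP2B-/- TOP2A-mAID. The HCT116 controls were labelled untreated. The labels of the second group conflicted, as the titles read as control whereas the treatment field and the count columns read as auxin, which by the treatment protocol means 500 µM auxin for 14 h after doxycycline for 24 h. Genotype, auxin and doxycycline therefore cannot be told apart in HCT116. In DLD-1, the labels do not separate auxin from doxycycline either. The labels did not say whether untreated cells received doxycycline, whether sorting of G1 cells was applied to these libraries, whether a line was 1 clone, or whether replicates were separate cultures. The p-values therefore measure only the spread between these libraries, which may be technical.

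NF-κB transcription factors are dimers of Rel-family proteins that are held in the cytoplasm by IκB proteins until a signal, such as TNF or IL-1, activates the IKK kinases. IKK marks IκB for destruction, and the freed dimers enter the nucleus and bind κB sites in DNA. Several of the genes they switch on, including NFKBIA and TNFAIP3, encode proteins that shut the pathway down, and others encode chemokines and adhesion molecules that draw in leukocytes.

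The κB sites of these genes are shown first, since members of the pathway are also its targets. Promoter sequence was available in RefSeq (GRCh38.p14) for 9 of 10 members and not for RELB. The 250 bases before the annotated start were searched on both strands for 2 overlapping κB patterns, GGGNNNTTCC and GGAANTTCC. Of 9 promoters, 6 held the first pattern, 5 held the second and 7 held either. Among all 35116 RefSeq promoters, 5.67% held the first and 0.826% held the second in the same window. The share of all promoters with either was not counted. The members were chosen as genes of this pathway, so these shares are no test of it. The NFKB2 and RELA windows held neither, which says only that these letters were not in these windows. A match is a string of letters and not a measured binding site. The 7 promoters with a match are given as 30 bases around it, 5′ to 3′ on the gene's strand, with the matched letters in capitals:

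NFKB1 (chr4:102501300-102501329, plus strand): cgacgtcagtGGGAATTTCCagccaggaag

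NFKBIA (chr14:35404811-35404840, minus strand): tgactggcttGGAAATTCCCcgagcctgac

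TNFAIP3 (chr6:137867188-137867217, plus strand): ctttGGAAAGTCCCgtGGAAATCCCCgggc

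BIRC3 (chr11:102317275-102317304, plus strand): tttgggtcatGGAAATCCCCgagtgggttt

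CXCL1 (chr4:73869305-73869334, plus strand): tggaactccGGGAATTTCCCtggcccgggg

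CXCL2 (chr4:74099253-74099282, minus strand): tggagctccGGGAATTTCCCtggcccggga

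ICAM1 (chr19:10270924-10270953, plus strand): gctttagcttGGAAATTCCggagctgaagc

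The match began 49 bases before the start in NFKB1, 81 in NFKBIA, 199 in BIRC3 and 186 in ICAM1. TNFAIP3 held 2 matches separated by 2 bases, the first of which began 67 bases before the start. The 30 bases shown for TNFAIP3 and ICAM1 lay wholly, and those for CXCL2 mostly, within the counted gene model, which began upstream of the RefSeq start used. CXCL1 and CXCL2 held the same run of 11 letters, beginning 79 and 78 bases before their starts. Their windows also shared an identical run of 42 bases nearer the start. The pattern TATAAA, also searched on both strands, was found in 2 of 9 windows and in 10.7% of all promoters. ICAM1 held it on the gene's strand. NFKBIA held it only on the opposite strand, so that it reads TTTATA on the gene's strand. For context, 245 bases upstream of the counted NFKBIA gene (chr14:35404755-35404999, minus strand) are shown, since NFKBIA is a classical feedback gene of the pathway and one of the members that fell after auxin:

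NFKBIA: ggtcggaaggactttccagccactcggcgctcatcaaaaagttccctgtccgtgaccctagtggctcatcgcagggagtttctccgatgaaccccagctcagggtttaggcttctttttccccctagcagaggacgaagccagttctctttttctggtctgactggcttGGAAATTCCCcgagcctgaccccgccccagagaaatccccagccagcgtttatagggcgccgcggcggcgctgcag

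The depth and background of the libraries bear on every value. Total counts in DLD-1 were 62626875 and 36906755 without auxin but 14183633 and 10739622 with it, and ranged from 32129400 to 36491540 in HCT116. A background density was taken from 3095 gene models that were nearly silent in the other cell line. Spread over all models, this density amounted to 2.25% and 9.05% of the counts in the DLD-1 controls, 39.5% and 59.8% after auxin, and 0.261% to 3.05% in HCT116. The epithelial markers EPCAM, CDH1, KRT8 and KRT18 were expressed in both lines, whereas LGALS4 was at most 1.15 CPM (counts scaled to a common library size). In HCT116, KRT20 was at 0 to 0.231 CPM and VIL1 at 0.226 to 0.824 CPM, so these colon markers were near absent there. CDX2, a factor of intestinal identity, had 78.5 and 71.5 CPM in the DLD-1 controls and 7.66 and 5.45 CPM after auxin. Of all genes tested in DLD-1, 44.7% were higher in CPM in both auxin libraries than in both controls. So were 5 of 5 immune and 5 of 5 fibroblast markers. Their summed levels were 3.46 and 8.28 CPM in controls against 32.9 and 36.1 CPM after auxin for immune markers, and 8.13 and 15.7 against 42.0 and 59.0 CPM for fibroblast markers. In the controls the immune markers lay at 0.312 to 23.8 times and the fibroblast markers at 0.382 to 5.37 times the background density. After auxin these ranges were 0.315 to 9.01 and 0.589 to 1.39 times, and no marker of either list was at 0 in DLD-1. Their part in the results of the members was not tested. In HCT116 the sums were 8.82 to 11.3 CPM for immune and 27.9 to 47.2 CPM for fibroblast markers, mostly CD68 and COL1A1. Auxin acts on the RPB1 protein, so POLR2A counts do not check the labels. In HCT116, TOP2B, the gene knocked out, fell by 0.50 on the log2 scale (edgeR's quasi-likelihood test, adjusted p = 0.0269), from 185.7 and 191.7 CPM in controls to 134.6 and 131.6 CPM.

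In the DLD-1 controls the members differed widely in level per length. CPM here rest on library sizes scaled by TMM, a method that balances libraries on the bulk of their genes, and levels between genes are given per kb of counted length, introns included. NFKBIA, which encodes IκBα, was the highest at 7.10 ± 0.234 CPM per kb (SD, n = 2). RELA, the p65 subunit, followed at 3.63 ± 0.602 and NFKB2, the precursor of p52, at 3.31 ± 0.484 CPM per kb, and the libraries of these neighbours overlapped. ICAM1 stood at 1.61 ± 0.188, NFKB1 at 1.33 ± 0.0429 and BIRC3 at 0.733 ± 0.0472 CPM per kb. CXCL2 at 0.485 and TNFAIP3 at 0.464 CPM per kb overlapped, as did RELB at 0.237 and CXCL1 at 0.154. All other neighbours in this order were separate in both libraries.

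In the HCT116 controls NFKB2 led instead, at 18.6 ± 2.07 CPM per kb, above NFKBIA at 7.58 ± 1.20 and RELA at 5.82 ± 0.734. BIRC3 followed at 1.29 ± 0.0612. RELB at 0.987, ICAM1 at 0.944, TNFAIP3 at 0.865 and NFKB1 at 0.859 CPM per kb came next, each overlapping its neighbour. CXCL2 at 0.405 and CXCL1 at 0.134 CPM per kb were lowest. The cell lines were counted in separate tables, so their levels were set side by side and not tested.

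**Figure D1:**
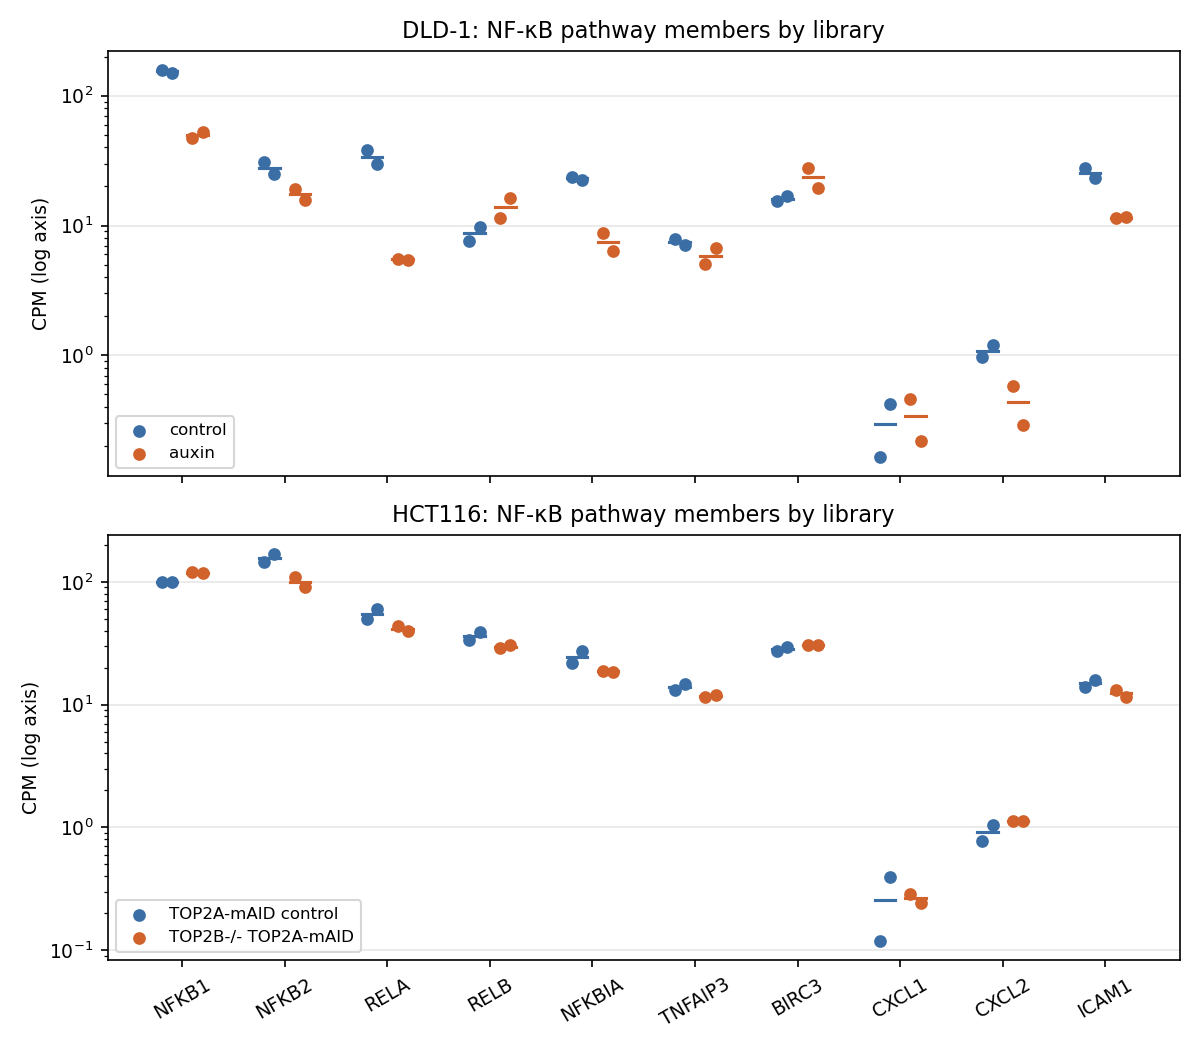
CPM of each member (log axis) in the 4 DLD-1 libraries (top) and the 4 HCT116 libraries (bottom). Points are single libraries and bars are group means. In DLD-1 the controls of NFKB1, RELA, NFKBIA and ICAM1 lie well above the auxin libraries, whereas in HCT116 the groups lie close together.

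The comparison of auxin with control in DLD-1 asked which nascent RNA was altered when RPB1 was to be degraded. Of the 10 members, 9 passed the filter on low counts, and 4 of them fell, namely RELA, NFKB1, NFKBIA and ICAM1. None rose by edgeR's quasi-likelihood test at an adjusted p of 0.05, and 0 were higher at an unadjusted p under 0.05. DESeq2 also called 0 higher. Of 17625 genes tested, 35.0% were called lower and 32.2% were called higher, so a fall was common to a large share of all genes. The median log2 fold change was -1.15 over the 9 members and -0.06 over all genes tested. CPM are shares of a library, and in bulk libraries fewer cells and less RNA per cell cannot be told apart.

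Among the subunits, RELA (hg38, chr11:65653596-65662972, minus strand), whose product p65 carries the main transactivation domain of NF-κB, fell the most. It had 38.0 and 30.0 CPM in the controls and 5.51 and 5.45 CPM after auxin. Both auxin libraries were far below both controls. The change was -2.63 ± 0.251 on the log2 scale (SE, n = 2 per group), or 6.20-fold lower, with an adjusted p of 0.00421 by edgeR's quasi-likelihood test.

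NFKB1 (chr4:102501329-102617302, plus strand), which encodes p105, the precursor of p50, had 157.5 and 150.4 CPM in the controls and 46.9 and 52.3 CPM after auxin. The groups were well separated, and each was tight. NFKB1 fell by 1.63 on the log2 scale with an SE of 0.161 (3.10-fold lower, adjusted p = 0.00421 by edgeR). RefSeq places NFKB1-AS1 within its span, and without a stated use of strand in counting, their reads could not be told apart.

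NFKB2 and RELB encode the pair of subunits of the non-canonical branch. NFKB2 (chr10:102394110-102402529, plus strand) had 30.7 and 25.0 CPM in the controls and 19.04 and 15.8 CPM after auxin. Its groups did not overlap, with both auxin libraries lower, but the log2 fold change of -0.67 ± 0.238 did not pass (adjusted p = 0.0556 by edgeR). RELB (chr19:45001449-45038198, plus strand) had 7.60 and 9.82 CPM in the controls and 11.4 and 16.3 CPM after auxin, which was higher in both auxin libraries. Its log2 fold change of 0.67 ± 0.330 did not pass (adjusted p = 0.127 by edgeR).

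Of the inhibitors and feedback regulators, NFKBIA fell and the other 2 did not pass. NFKBIA (chr14:35401510-35404754, minus strand) had 23.6 and 22.5 CPM in the controls and 8.71 and 6.32 CPM after auxin. The auxin libraries were both clearly lower, and NFKBIA fell by 1.61 on the log2 scale with an SE of 0.279 (3.06-fold lower, adjusted p = 0.0119 by edgeR). TNFAIP3 (chr6:137867188-137883314, plus strand), which encodes A20, an enzyme that edits ubiquitin chains on pathway adaptors, had 7.84 and 7.13 CPM in the controls and 5.05 and 6.69 CPM after auxin. WAKMAR2 overlaps its span in RefSeq. The gap between its groups was small, and its log2 fold change was -0.35 ± 0.334 (adjusted p = 0.377 by edgeR). BIRC3 (chr11:102317450-102339403, plus strand), which encodes cIAP2, a ubiquitin ligase of the TNF receptor complex, had 15.4 and 16.8 CPM in the controls and 27.9 and 19.3 CPM after auxin. Both auxin libraries were higher, unequally so, and the log2 fold change of 0.56 ± 0.272 did not pass (adjusted p = 0.124 by edgeR).

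Among the targets, ICAM1 (chr19:10270841-10286615, plus strand), an adhesion molecule bound by leukocyte integrins, fell. RefSeq places LIMASI and ICAM4-AS1 over part of its span. It had 27.6 and 23.4 CPM in the controls and 11.4 and 11.6 CPM after auxin. The auxin libraries were nearly equal and less than each control, and ICAM1 fell by 1.15 on the log2 scale with an SE of 0.228 (2.21-fold lower, adjusted p = 0.0164 by edgeR). CXCL2 (chr4:74097037-74099280, minus strand), a neutrophil chemokine, had 47 and 37 reads in the controls and 10 and 4 after auxin. As CPM these were 0.967 and 1.21 against 0.580 and 0.291, lower in both auxin libraries, with a log2 fold change of -1.29 ± 0.614 that did not pass (adjusted p = 0.117 by edgeR). CXCL1 (chr4:73869392-73871302, plus strand), a close relative, had 8 and 13 reads in the controls and 8 and 3 after auxin and did not pass the filter, so a difference was not detectable at this depth. CXCL1, CXCL2 and CXCL3 are closely related in sequence, and their counts are uncertain where reads could be split among them. Their similarity over the counted spans was not measured.

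Of the 9 members tested, 7 were below both controls and 2 above both controls in both auxin libraries. The same was true of 46.3% and 44.7% of all genes tested, respectively.

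**Figure D2:**
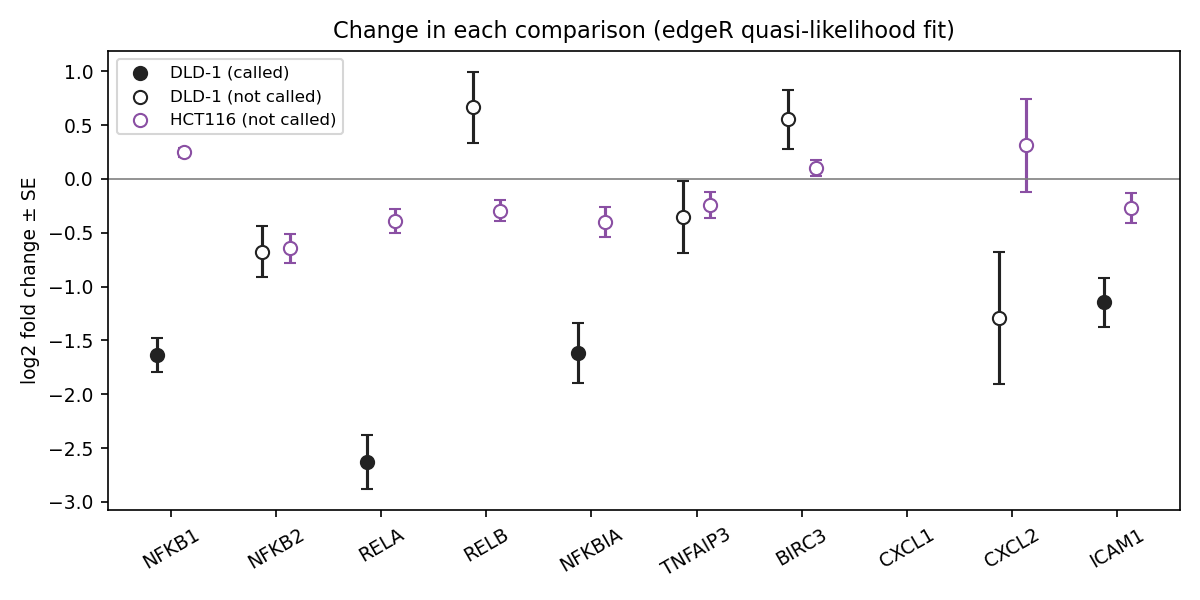
Log2 fold change of each member over its control, with SE bars, in DLD-1 (black) and HCT116 (purple). Filled points were called at an adjusted p of 0.05 by edgeR, and CXCL1 was not tested. The 4 called points are all in DLD-1 and lie between -2.63 and -1.15.

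Measured against the background density of each library, the members were not alike. In the DLD-1 controls each member had 2.33 to 286.5 times the reads that the density gave for its length. After auxin, NFKBIA kept 9.42 and 4.78 times, NFKB2 7.94 and 4.61 times, and BIRC3 4.47 and 2.16 times the background. ICAM1 was at 2.53 and 1.81 and RELA at 2.07 and 1.42 times. The other 5 members were under 1.5 times the background in both auxin libraries, NFKB1 at 1.42 and 1.11, TNFAIP3 at 1.10 and 1.02, RELB at 1.09 and 1.09, CXCL2 at 0.909 and 0.317, and CXCL1 at 0.854 and 0.280. No member was under 1.5 times the background in both controls. The level of RELB after auxin, above its controls in CPM, was thus close to that of silent genes.

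**Figure D3:**
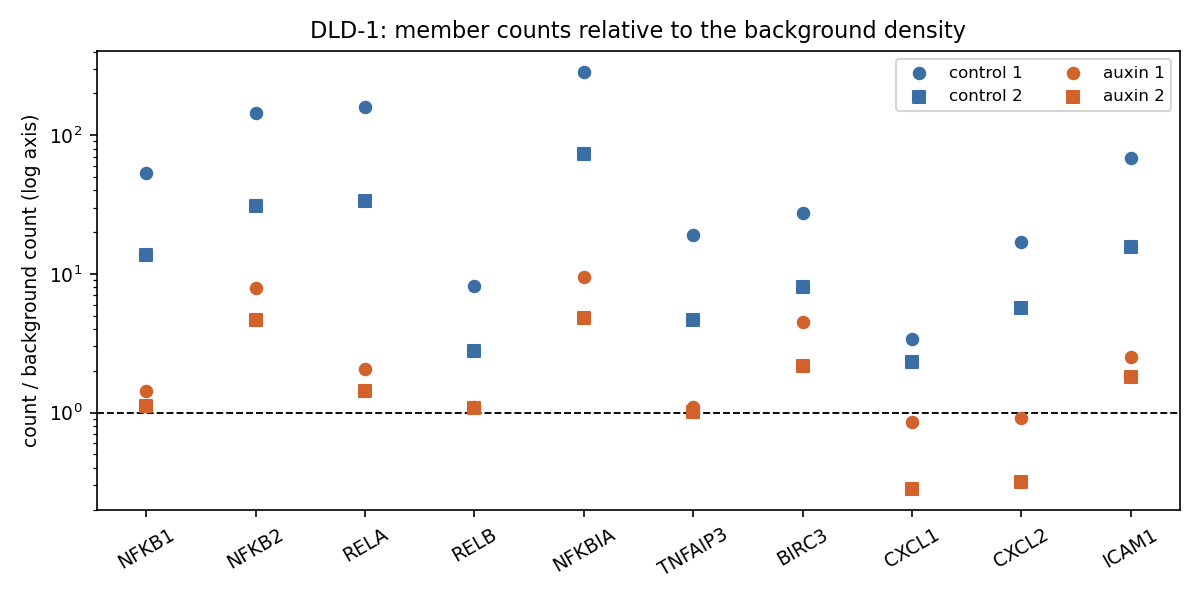
Count of each member divided by the count expected from the background density of its library (log axis) in the 4 DLD-1 libraries. The dashed line marks the background itself. Control libraries lie at 2.33 or more, and in the auxin libraries NFKB1, RELB, TNFAIP3, CXCL1 and CXCL2 lie at or under 1.42.

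When the background was subtracted from each count before the fit, 4 members were called lower and 1 higher, but not the same 4. The count filter and the TMM scaling were estimated again on the subtracted counts. The values below therefore hold both the subtraction and the new scaling, and the part of each was not tested. Remainders under 0 were set to 0, and remainders were fitted as if they were observed counts. The p-values therefore leave out the error of the subtraction, also in HCT116. Of 14329 genes tested in this way, 32.0% were lower and 27.7% higher. RELA remained lower by 2.62 and NFKB1 by 2.73 on the log2 scale (adjusted p = 0.00357 and 0.00600 by edgeR). TNFAIP3 had 361 and 171 reads above background in the controls and 8 and 1 after auxin, out of 87 and 92 counted there. It was called lower (adjusted p = 0.0283 by edgeR). CXCL2 had 44 and 30 such reads in the controls and 0 in both auxin libraries, and was called lower (adjusted p = 0.0403 by edgeR). NFKBIA at -0.54 (adjusted p = 0.0750) and ICAM1 at -0.70 (adjusted p = 0.0535) were no longer called by edgeR. BIRC3 had 719 and 450 reads above background in the controls and 373 and 143 after auxin. With the new scaling it was called higher, at 1.37 (adjusted p = 0.0131 by edgeR). The values of NFKB2, 0.42, and RELB, -1.14, changed sign without being called.

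The scaling also moved the members. With library totals in place of TMM, the median of all genes moved from -0.06 to 0.57. Of all genes called, 69.1% were then higher, against 47.9% with TMM. Under library totals, with 19.2% of all genes called lower and 42.8% higher, RELA, NFKB1 and NFKBIA were still called lower, while ICAM1, at -0.50, was not (adjusted p = 0.0971 by edgeR). RELB and BIRC3 were then called higher, at 1.31 and 1.18 (adjusted p = 0.0341 and 0.0258 by edgeR). Without either auxin library in turn, RELA and NFKB1 were the 2 members still called lower. All genes called lower were then 13.2% without the first auxin library and 16.9% without the second, and 0.410% and 1.23% were called higher. NFKBIA then had adjusted p-values of 0.0591 and 0.0655 and ICAM1 of 0.105 and 0.0925 by edgeR.

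**Figure D4:**
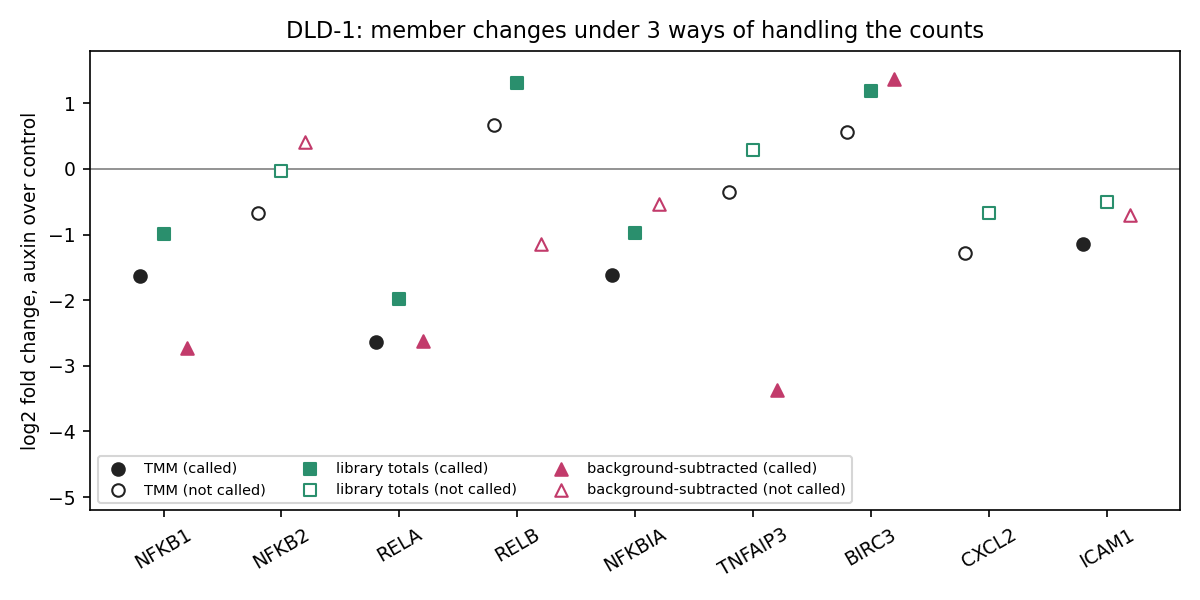
Log2 fold change of 9 members in DLD-1 with TMM scaling (circles), library totals (squares) and background-subtracted counts (triangles), where filled symbols were called at an adjusted p of 0.05. RELA and NFKB1 are called lower in all 3. CXCL2 is not drawn for the subtracted counts, as 0 reads remained after auxin.

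The wider pathway was described by 6 lists of 70 genes, of which 66 were tested in DLD-1. Together 29 fell and 13 rose, beside the 35.0% lower and 32.2% higher of all genes tested. Without either auxin library in turn, fewer list genes were called in each direction, as were fewer of all genes. Library totals left 16 list genes lower and 15 higher, beside 19.2% and 42.8% of all genes. Background-subtracted counts left 23 and 13, beside 32.0% and 27.7%. Of the 70 genes, 30 were under 1.5 times the background in both auxin libraries, and 16 were so in both controls. Of the 20 IKK kinases and upstream adaptors, 18 were called lower and 0 higher (median -1.17, against -0.06 for all genes), beside the same 35.0% and 32.2%. The 2 that did not pass were CHUK, a catalytic IKK kinase, at 0.14, and the adaptor MYD88, at -0.86. IKBKB, the catalytic kinase that marks IκBα, fell by 2.58 on the log2 scale, from 167.3 and 129.3 CPM to 22.3 and 27.2 CPM (adjusted p = 0.00421 by edgeR), and lay at 1.28 and 1.09 times the background after auxin.

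Among other feedback genes, 5 of 8 fell and 0 rose, beside 35.0% and 32.2% of all genes. The largest fall was that of OTULIN, which cleaves linear ubiquitin chains, at -1.91 (adjusted p = 0.00552 by edgeR), with 1.11 and 1.03 times the background after auxin. Of the 6 other subunits and IκB proteins, 1 fell. This was NFKBIZ, an atypical nuclear IκB, at -0.94 (adjusted p = 0.0172 by edgeR), with 5.61 and 3.06 times the background after auxin. REL, the subunit c-Rel, at -0.27, and NFKBIE, which encodes IκBε, at -0.15, did not pass.

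Of the 10 receptors, 5 were called higher and 4 lower, beside 32.2% and 35.0% of all genes. CD40, among those called higher, passed the filter on low counts without reaching its minimum in both controls. TNFRSF12A, the receptor for TWEAK, fell by 2.57 on the log2 scale (adjusted p = 0.00824 by edgeR) and kept 9.35 and 3.61 times the background. TNFRSF11A, which encodes RANK, rose by 2.99 (adjusted p = 0.00421 by edgeR), from 8.89 and 13.0 CPM to 99.2 and 73.9 CPM. In units of background it went from 5.61 and 2.17 times in the controls to 5.59 and 2.90 times after auxin.

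Chemokine and cytokine targets had 10 of 14 genes tested, of which 4 were called higher and 0 lower, beside 32.2% and 35.0% of all genes. Of these 10, 7 passed the filter without reaching its minimum in both controls, CCL20 and CXCL10 among those called higher, and such genes could be tested only through reads in an auxin library. CCL20, a chemokine for CCR6, had 3 reads in each control and 32 and 24 after auxin, or 0.654 and 0.276 times the background against 1.75 and 1.15 times. CXCL5, also called higher, was chosen for mention after its value was seen. It rose by 1.56 on the log2 scale (adjusted p = 0.00535 by edgeR), from 29.2 and 31.0 CPM to 98.0 and 79.6 CPM. It stood far above the background, at 372.8 and 104.8 times in the controls and 111.5 and 63.2 times after auxin. CXCL3, at -0.53, and CXCL8, at 1.29, which lie near CXCL1 and CXCL2 on chromosome 4, did not pass.

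Of 12 other targets, 4 were called higher and 1 lower, a share of higher calls near the 32.2% of all genes, and 3 of the 4 (MMP9, PTGS2 and VCAM1) passed the filter without reaching its minimum in both controls. BCL2L1, the source of the survival protein BCL-XL, fell by 3.78 (adjusted p = 0.00421 by edgeR), from 524.7 and 416.6 CPM to 37.4 and 31.0 CPM, which was 2.25 and 1.30 times the background. VCAM1, an adhesion molecule, had 22 and 63 reads in the controls and 183 and 168 after auxin, or 0.920 and 1.11 times the background against 1.92 and 1.54 times. Of the 13 list genes called higher, 10 were under 2 times the background in a control library. The part of background reads, and of the immune and fibroblast markers that were higher in CPM after auxin, in these rises was not tested.

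**Figure D5:**
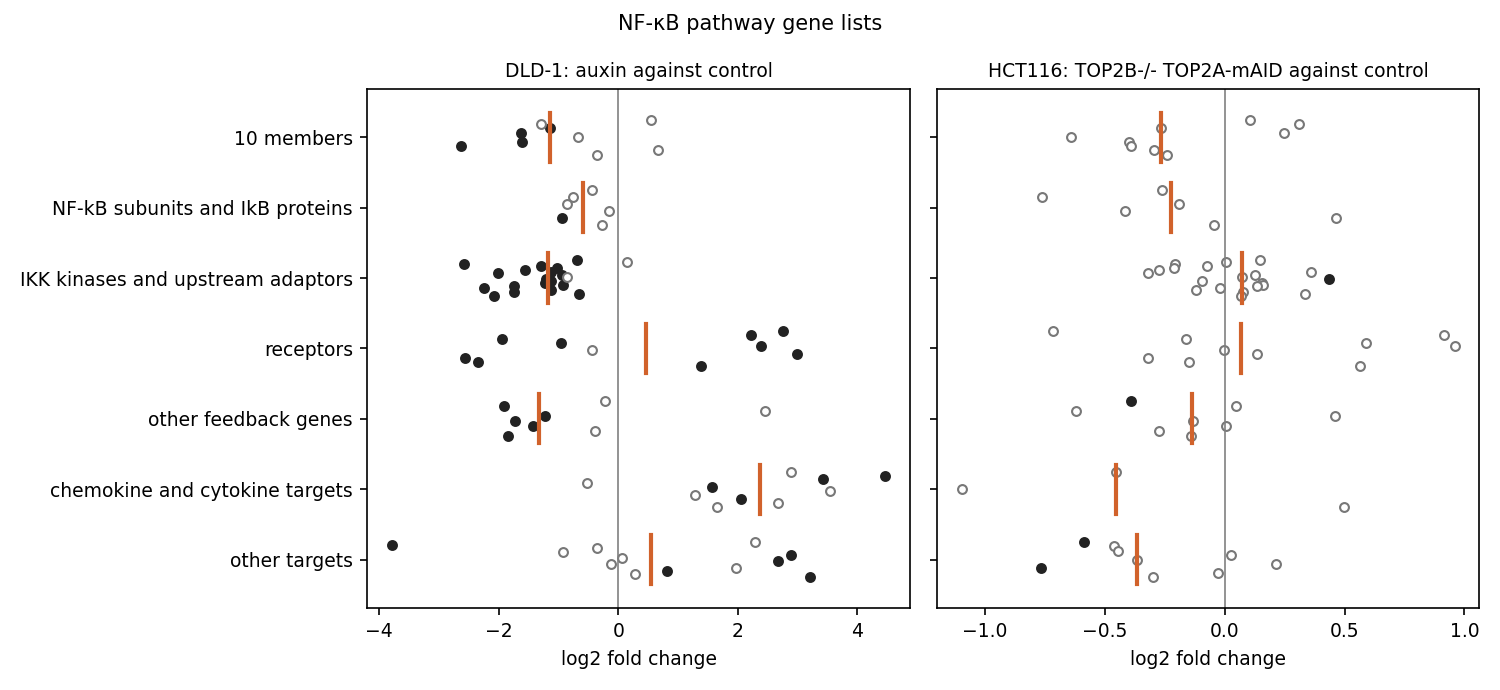
Log2 fold change of the tested members and of 6 pathway lists in DLD-1 (left) and HCT116 (right). Each point is a gene, filled where called at an adjusted p of 0.05 by edgeR, and the orange bar is the list's median. The horizontal scales differ, and in DLD-1 the kinase and adaptor list lies almost wholly below 0.

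The comparison of TOP2B-/- TOP2A-mAID with TOP2A-mAID control cells gave small values for the members. Of the 9 tested, 0 were called by edgeR's quasi-likelihood test, beside 1.75% of 15273 genes called higher and 1.66% called lower. At an unadjusted p under 0.05 there were 5, NFKB1 on the higher side and NFKB2, RELA, RELB and NFKBIA on the lower side, beside 22.9% of all genes tested. DESeq2 called the same 5, but it also called 9.65% of all genes higher and 11.9% lower. The median log2 fold change was -0.27 over members and 0.03 over all genes tested.

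NFKB2 had the most negative value. It had 144.1 and 168.7 CPM in the controls and 110.1 and 90.2 CPM in the second group. Both libraries of the second group were lower, with a log2 fold change of -0.64 ± 0.135 (adjusted p = 0.0964 by edgeR and 7.02e-07 by DESeq2). NFKB1 had 99.99 and 99.3 CPM in the controls and 119.1 and 117.3 CPM in the second group. Here both libraries of the second group were higher, within a narrow spread, at 0.25 ± 0.0383 (adjusted p = 0.0616 by edgeR and 5.80e-05 by DESeq2).

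RELA had 49.7 and 59.5 CPM in the controls and 43.8 and 39.4 CPM in the second group. RELB had 33.8 and 38.7 CPM against 28.6 and 30.6 CPM. Both subunits were lower in each library of the second group, at -0.39 ± 0.115 and -0.29 ± 0.0966 on the log2 scale (adjusted p = 0.161 and 0.193 by edgeR). DESeq2 gave 0.00438 and 0.0235 for them.

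NFKBIA had 21.9 and 27.3 CPM in the controls and 18.8 and 18.4 CPM in the second group, which was lower in both. Its log2 fold change was -0.40 ± 0.142 (adjusted p = 0.212 by edgeR and 0.0265 by DESeq2). TNFAIP3 had 13.1 and 14.8 CPM against 11.6 and 12.0 CPM, or -0.24 ± 0.123 on the log2 scale (adjusted p = 0.339 by edgeR). BIRC3 had 27.5 and 29.4 CPM against 30.5 and 30.7 CPM, the smallest difference of the 9, at 0.11 ± 0.0745 (adjusted p = 0.472 by edgeR).

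ICAM1 had 13.9 and 15.9 CPM in the controls and 13.1 and 11.6 CPM in the second group. Its log2 fold change of -0.27 ± 0.139 did not pass (adjusted p = 0.348 by edgeR). CXCL2 rested on 26 and 37 reads in the controls and 39 and 37 in the second group, with a log2 fold change of 0.31 ± 0.432 (adjusted p = 0.693 by edgeR). CXCL1 had 4 and 14 reads against 10 and 8, overlapped between groups and did not pass the filter. For these chemokines, a difference was not detectable at this depth.

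For all 9 tested members the groups did not overlap, with 6 below both controls and 3 above. Among all genes tested, 27.6% were below both controls and 27.6% above. Each member stood at 4.02 times the background or more in each HCT116 library. With background-subtracted counts, NFKB1 was called higher and NFKB2, RELA and NFKBIA lower, beside 8.73% and 8.64% of all genes called higher and lower. Without the first control library, where these shares were 7.68% and 8.32%, NFKB1 was called higher and 4 members lower, with NFKB2 at -0.76 (adjusted p = 0.0352 by edgeR). Without any other library, 0 members were called.

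Of the 70 list genes, 56 were tested in HCT116, where 1 rose and 3 fell (median -0.06), beside 1.75% and 1.66% of all genes. The counts higher and lower were 7 and 9 with DESeq2, beside 9.65% and 11.9% of all genes. With background-subtracted counts they were 6 and 7, beside 8.73% and 8.64%. Without the first control library both counts were higher, as was the case among all genes. Without either library of the second group they were 0 and 0, and without the second control 0 and 2. RIPK1, the kinase that joins the TNF receptor complex, rose by 0.43 on the log2 scale, from 40.9 and 41.7 CPM to 55.2 and 56.5 CPM (adjusted p = 0.0352 by edgeR). CYLD, a deubiquitinase that restrains the pathway, fell by 0.39, from 70.5 and 74.2 CPM to 55.2 and 55.3 CPM (adjusted p = 0.0421 by edgeR). SDC4, a cell-surface proteoglycan, fell by 0.77 (adjusted p = 0.0350 by edgeR), and BCL2L1 fell by 0.59 (adjusted p = 0.0254 by edgeR). BCL2L1 was chosen for mention after its value was seen. SDC4 and BCL2L1 both lie on chromosome 20, where the median over 405 tested genes was -0.56, against 0.04 for genes elsewhere. No member lies on that chromosome.

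By list, the numbers called higher and lower were 1 and 0 of 20 kinases and adaptors, 0 and 1 of 8 other feedback genes, and 0 and 2 of 9 other targets. None was called of 6 other subunits and IκB proteins, of 10 receptors, or of the 3 chemokine genes tested. REL was at -0.05, NFKBIE at -0.42, CXCL3 at -0.45 and CXCL8 at -1.10 on the log2 scale, and none of these passed.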

How the data were processed

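The authors deposited raw read counts per RefSeq gene model, in 1 table per cell line, and these counts were used as deposited. All members were counted over their whole span. The submitters' processing notes name STAR, DESeq2 and hg38 without roles. The sources used here do not give the counting tool, its settings or its use of strand. The authors' tables of changed genes (log2 fold changes, p-values and normalized values) were not used. The supplied paper describes another experiment and gave no design.

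The 4 libraries of each comparison entered a separate edgeR fit (version 4.0.16, R 4.3.3) tested by quasi-likelihood (filterByExpr with a minimum count of 10, TMM, 2 residual degrees of freedom). P-values were two-sided and adjusted over all genes tested by the Benjamini-Hochberg method at 0.05. SEs came from the F statistic and the log2 fold change. The code was tested on simulated counts. The background density of a library was its median count per base in a set of nearly silent models of at least 5000 bp. Within each chromosome except Y, these were the 20% with the fewest reads per kb in the other line's controls. Alternatives included DESeq2 1.42.0.

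All 10 members were named in each comparison. Of each pathway list, the largest rise and fall were named among called genes with a mean of at least 1 CPM in 1 group. CXCL3, CXCL8, REL and NFKBIE were always named. CXCL5 in DLD-1 and BCL2L1 in HCT116 were added after their values were seen. CHUK and MYD88 in DLD-1 were named outside this rule, as the kinase and adaptor genes not called. The members and lists were chosen with earlier results of these data known. Promoters came from RefSeq (GRCh38.p14), 1 per member, the start nearest the counted one.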

Additional observations from a re-analysis of the deposited data

How the results depend on the processing

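With 2 libraries per group, leaving 1 out makes the lone library borrow the spread of the other group. In DLD-1, the number of all genes called (11855) was 2393 to 12732 with 1 library left out, the lowest without auxin replicate 1, and members called lower were 2 to 5. No count of members called lower was outside 1.5 times the 4 reported under the other alternatives. Members called higher (0) became 2 with library totals and with all 8 libraries in 1 fit, and 1 under background subtraction or a mean CPM filter of 5. Of all genes, 42.8% were called higher with library totals and 27.7% under background subtraction. With all 8 libraries, 5974 of 17800 genes tested were called higher, and with the mean CPM filter 4352 of 13446. In HCT116, all genes called (521) became 3295 with DESeq2, 1221 with the mean CPM filter, 2357 with background-subtracted counts, 5 with all 8 libraries, and 0 to 2519 with 1 library left out. The 0 arose without either library of the second group, with 2266 and 1286 genes at an unadjusted p under 0.05. Members called higher and lower (0 and 0) became 1 and 4 with DESeq2, 0 and 1 with the mean CPM filter, 1 and 3 with background-subtracted counts, and 0 to 1 and 0 to 4 with 1 library left out. Among all genes in HCT116, 9.65% and 11.9% were called higher and lower with DESeq2, and 8.73% and 8.64% with background-subtracted counts. With the mean CPM filter, 564 and 657 of 11174 genes tested were called higher and lower. The cause of these shifts in calls was not tested. Replicate numbers are shared by title only. With the replicate block, NFKB2 was called lower in DLD-1 (adjusted p = 0.0384 by edgeR), 12963 genes were called there, and in HCT116 0 were (2177 at an unadjusted p under 0.05). Deviations of same-numbered libraries correlated across genes at 0.56 in DLD-1 and -0.82 in HCT116. A crossed replicate block in HCT116, chosen after seeing the data, called 1808 of 15273 genes, 667 higher and 1141 lower. It called 1 member higher and 2 lower. The 4 members called lower in DLD-1 were negative under each alternative. RELB, TNFAIP3 and NFKB2, called only under some alternatives, had values of the other sign, not called, under others. Median-of-ratios size factors, no count filter and, in DLD-1, thinning to the shallowest library changed no call of a member. Counts of 3 to 47 reads limit CXCL1 and CXCL2.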
